A study of Mus musculus with 15 samples.

Results

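The transcripts of 8 mouse genes were followed across 5 sorted cell populations. Esrp1 and Esrp2 encode the epithelial splicing regulatory proteins, and Cd44, Ctnnd1, Fgfr1, Fgfr2, Tpm1 and Enah are genes known for exons that epithelial and mesenchymal cells splice differently. They were taken by symbol, each with all of its listed transcripts, which gave 8 of 10222 genes and 22 of 12698 RefSeq transcripts. Of these, 6 genes had 2 or more listed transcripts (Esrp1 2, Cd44 3, Ctnnd1 4, Fgfr1 3, Fgfr2 2 and Tpm1 6), as did 1786 genes in all, whereas Esrp2 and Enah had 1 each and are given by level only.

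RNA was sequenced from 3 libraries of each population, 15 in all, from cells sorted ex vivo from C57BL/6 mice that carry a citrine reporter of Il33, described by the submitters as heterozygous. The populations were EpCAM+ epithelial cells from lung, mesenchymal stromal cells from lung that expressed the reporter (lung Il33+ MSC), stromal cells with and without reporter signal from mesenteric white adipose tissue (Il33+ and Il33- WAT-MSC) and CD31+ endothelial cells from white adipose tissue (WAT). No group was treated, and every population carried the reporter. Only the epithelial cells and 1 of the stromal populations came from lung, so tissue and cell type cannot be told apart in a comparison of epithelial cells with the WAT populations. Values are RPKM (read counts scaled by transcript length and by the library's mapped reads), from 42711843 to 60773158 alignments per library. A gene's level here is the sum over its listed transcripts, and a transcript's share is its percentage of that sum. In such bulk samples fewer cells of a type and less RNA per cell cannot be told apart.

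The 8 defining epithelial markers, Epcam and Cdh1 among them, summed to between 366 and 687 RPKM in the epithelial libraries and to at most 57.9 elsewhere. The 6 stromal markers summed to between 4271 and 8945 RPKM in the stromal libraries, but also to between 1767 and 3659 in the endothelial libraries and to between 90.9 and 177 in the epithelial ones. The 7 endothelial markers summed to between 463 and 516 RPKM in the endothelial libraries, and to between 43.3 and 64.9 in the epithelial ones and 24.8 and 38.9 in lung Il33+ MSC. The endothelial libraries also held 6 of 6 pericyte and smooth muscle markers at a mean of at least 1 RPKM. Their sums lay between 193 and 271, against at most 37.3 elsewhere, and mesothelial markers had sums of up to 155 in the endothelial libraries. Of 6 leukocyte markers 4 were listed, with sums between 688 and 1318 RPKM in the epithelial libraries. Of these sums Lyz2, which alveolar epithelial cells also express, made up between 658 and 1301. The leukocyte markers summed to between 123 and 153 RPKM in lung Il33+ MSC and to at most 127 in the endothelial libraries. The part of these cells in the results was not tested.

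ESRP proteins bind RNA in and beside alternative exons, and they switch exons in or out in epithelial cells. Cells that undergo epithelial to mesenchymal transition lose them, and with them the epithelial forms of Fgfr2, Cd44, Ctnnd1 and Enah. In the fibroblast growth factor receptors, 1 of 2 mutually exclusive exons forms the second part of the third immunoglobulin loop, and so sets which ligands bind: IIIb is the epithelial form of Fgfr2 and IIIc the mesenchymal one. Cd44, a hyaluronan receptor, can carry a run of variable exons in its extracellular stem. Tpm1, an actin-binding tropomyosin, has alternative first and last exons and pairs of mutually exclusive internal exons.

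Exons that tell the Tpm1 and Cd44 transcripts apart are shown because the called shares below rest on them. All positions are on GRCm38 (mm10), and the sequences were read from that genome in the direction of the gene. In the Tpm1 pair of 76-base exons, capitals mark the bases that differ when the 2 exons are aligned.
Tpm1 upstream exon, chr9:67032466-67032541, minus strand: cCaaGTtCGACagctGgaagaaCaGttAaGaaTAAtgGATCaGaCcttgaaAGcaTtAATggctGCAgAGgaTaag
Tpm1 downstream exon, chr9:67031951-67032026, minus strand: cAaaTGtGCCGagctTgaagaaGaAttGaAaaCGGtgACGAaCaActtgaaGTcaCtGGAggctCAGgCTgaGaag
The Tpm1 exons were identical at 43 of 76 positions. The IIIb exon belongs to the Fgfr2 transcript NM_201601 and the IIIc exon to NM_010207. The upstream Tpm1 exon belongs to NM_001164250, NM_001164251 and NM_001164253, and the downstream one to NM_024427, NM_001164249 and NM_001164252.

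The 3 Cd44 exons that only NM_001039150 holds are given as well, since this transcript had the largest difference of the Cd44 forms. They are printed in lower case throughout.
Cd44 variable exon of 120 bases, chr2:102839358-102839477, minus strand: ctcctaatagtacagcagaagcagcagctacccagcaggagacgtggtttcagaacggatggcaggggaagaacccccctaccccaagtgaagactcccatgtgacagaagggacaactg
Cd44 variable exon of 126 bases, chr2:102837813-102837938, minus strand: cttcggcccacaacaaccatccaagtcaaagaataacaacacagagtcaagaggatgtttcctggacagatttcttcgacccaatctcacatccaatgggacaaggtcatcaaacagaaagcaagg
Cd44 variable exon of 102 bases, chr2:102834234-102834335, minus strand: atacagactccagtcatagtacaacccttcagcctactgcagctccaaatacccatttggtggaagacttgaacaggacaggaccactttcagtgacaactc
NM_001039150 holds 2 further variable exons, of 90 and 207 bases, which it shares with NM_001177787, and NM_001039151 holds none of the 5. All exons printed here lie within the coding sequence.

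**Figure D1:**
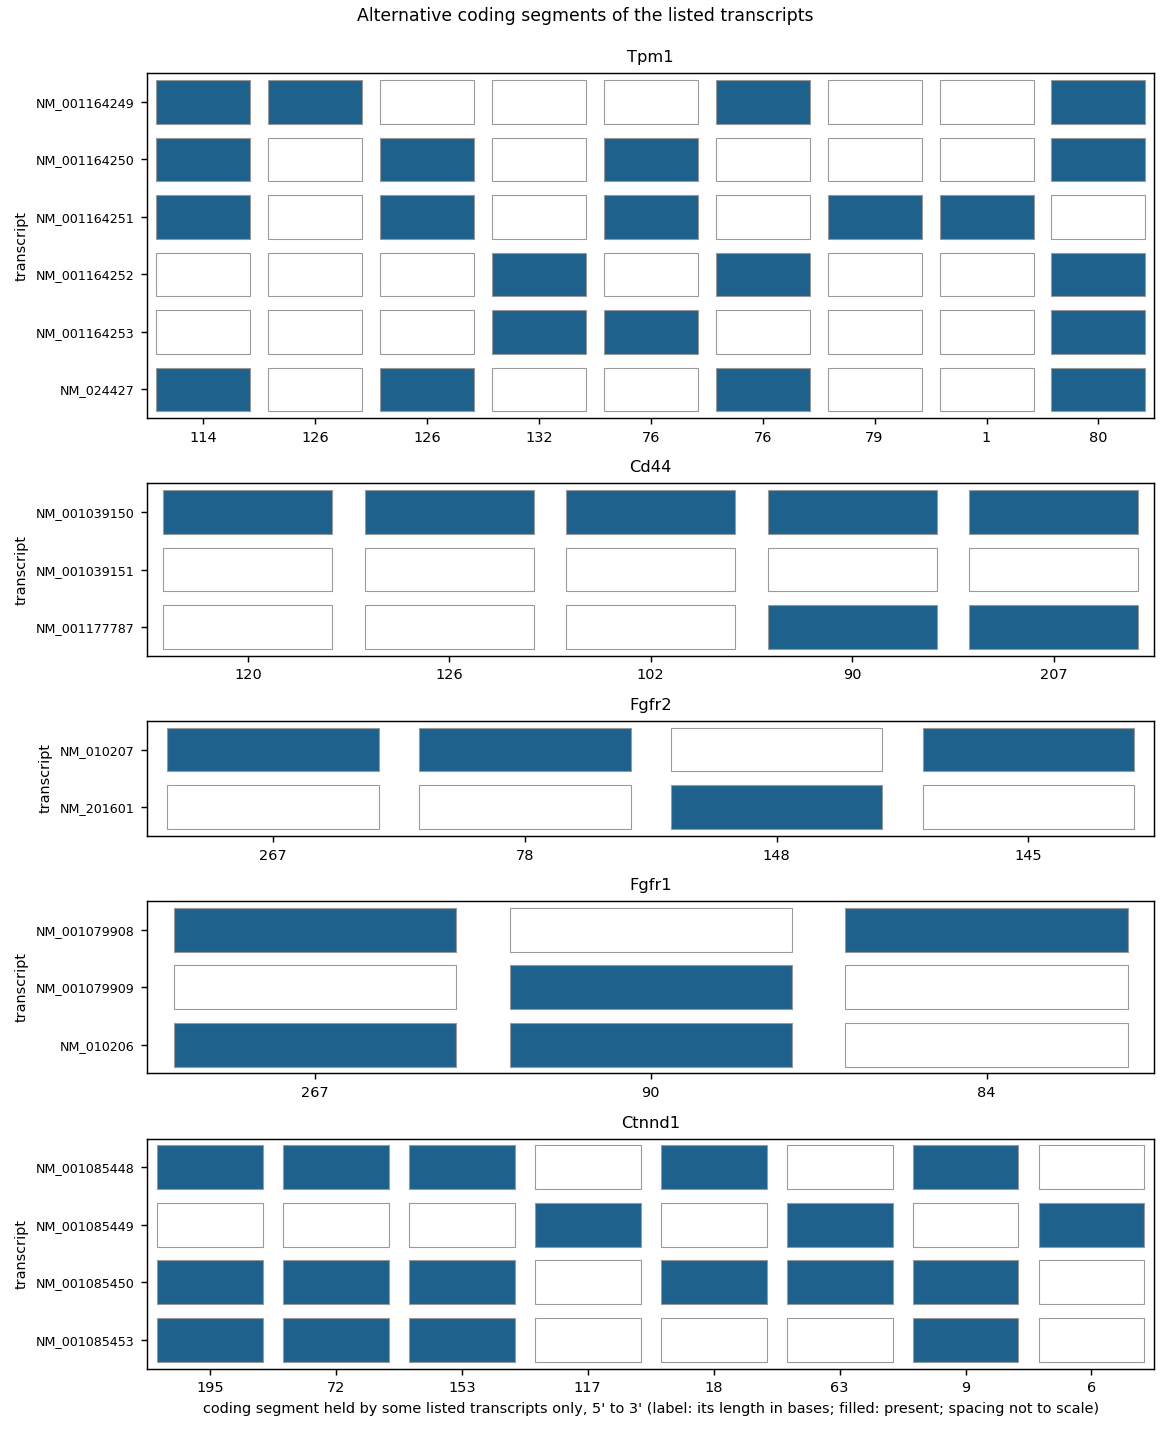
Coding segments held by some, but not all, listed transcripts of Tpm1, Cd44, Fgfr2, Fgfr1 and Ctnnd1, in 5′ to 3′ order, with each segment's length in bases on the horizontal axis and 1 transcript per line (filled: present; spacing not to scale). No Fgfr2 transcript holds both the 148-base IIIb exon and the 145-base IIIc exon, and the 2 transcripts also differ in the exons of 267 and 78 bases.

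Both splicing regulators were found at a level above 1 RPKM in the epithelial libraries alone. Esrp1 (chromosome 4) read 6.55, 12.6 and 8.91 RPKM in the 3 epithelial libraries, 0.02 in each lung Il33+ MSC library, 0.02 in 1 Il33- WAT-MSC library, and was listed at 0 in the other 8. Esrp2 (chromosome 8) read 5.06, 8.98 and 10.1 RPKM in epithelial cells, 0, 0.14 and 0.45 in lung Il33+ MSC, and at most 0.03 in the other 9 libraries. No library of another population came near the epithelial range for either gene.

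With limma on log2(RPKM + 1), Esrp1 was 3.30 higher in epithelial cells than in lung Il33+ MSC (SE 0.29, Benjamini-Hochberg adjusted p = 1.91e-05) and Esrp2 was 2.89 higher (SE 0.32, adjusted p = 7.73e-05). These differences of log2 values understate the contrast, because the stromal values lie below the added 1. Both genes passed the filter on low values only through the epithelial libraries, so their differences and calls are a description. In this comparison 43% of 9352 genes were called, 18.5% higher and 24.4% lower, so a call by itself sets no gene apart. The higher genes were 43.1% of the calls, and 56.1% with median-ratio scaling, which moves the median of all genes by more than 0.1. Of the 8 genes followed here 4 were called under both scalings, Esrp1, Esrp2 and Fgfr2 higher and Fgfr1 lower. Against the mean of the 4 other populations, where 44.2% of 9981 genes were called, 18.5% higher and 25.6% lower, the same 4 were called in the same directions together with Enah, which was higher.

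The 2 listed Esrp1 transcripts, NM_194055 and NM_001290383, took near-equal shares. NM_194055 held 52.2%, 57.8% and 49.0% of the gene in the epithelial libraries. Both RefSeq entries matched the same GENCODE transcript of 16 exons, so no exon can be set against these shares, and in the other populations the gene was too low to read a share.

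Over the 15 libraries, the log2(RPKM + 1) values of Esrp1 and Esrp2 had a Pearson r of 0.9903. The genes closest to Esrp1 were Syt10, Dnah7a, 1700024G13Rik, Tctex1d4 and Ttc34 (r between 0.9990 and 0.9994), and those closest to Esrp2 were Hmgcll1, Dyrk3, Muc5b, Efcab10 and Sntn (r between 0.9953 and 0.9972). Dnah7a is an axonemal dynein of motile cilia and Muc5b a secreted airway mucin. These correlations describe 3 high libraries against 12 low ones.

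**Figure D2:**
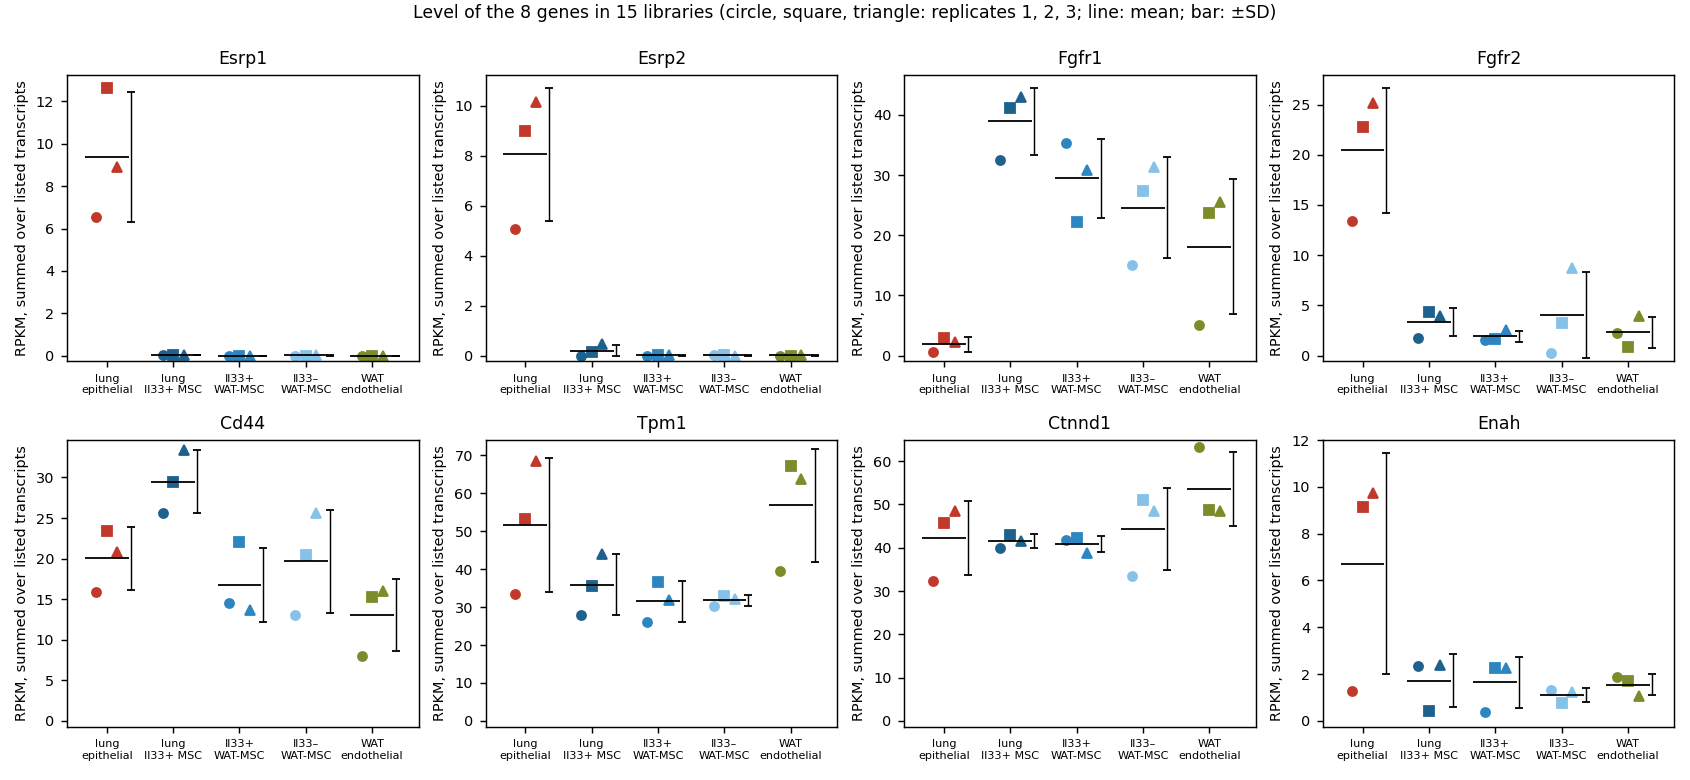
Level in RPKM, summed over listed transcripts, of the 8 genes in each library (points; circle, square and triangle are replicates 1, 2 and 3), with the mean (line) and SD (bar) of the 3 libraries per population. Esrp1 and Esrp2 are at 5.06 RPKM or more in the epithelial libraries and at most 0.45 elsewhere, while Fgfr1 and Fgfr2 lie in opposite directions.

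The 2 fibroblast growth factor receptors had opposite levels. Fgfr2 (chromosome 7) read 13.4, 22.8 and 25.1 RPKM in epithelial cells against 1.73, 4.36 and 3.99 in lung Il33+ MSC. It read 1.57, 1.64 and 2.56 RPKM in Il33+ WAT-MSC, 0.22, 3.24 and 8.70 in Il33- WAT-MSC and 2.25, 0.82 and 3.92 in endothelial cells. The epithelial libraries were the 3 highest, and the other populations overlapped each other. Fgfr2 was 2.31 higher on the log2(RPKM + 1) scale in epithelial cells than in lung Il33+ MSC (SE 0.34, limma adjusted p = 0.000476).

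Fgfr1 (chromosome 8) read 0.54, 2.97 and 2.24 RPKM in epithelial cells and 32.5, 41.2 and 43.0 in lung Il33+ MSC. Il33+ WAT-MSC had 35.2, 22.2 and 30.8 RPKM, Il33- WAT-MSC 15.1, 27.4 and 31.3, and endothelial cells 5.15, 23.6 and 25.5. The 3 epithelial libraries were the lowest of the 15. Its difference between epithelial cells and lung Il33+ MSC was -3.87 (SE 0.35, limma adjusted p = 2.24e-05). Epithelial Fgfr1 of this size stood beside stromal marker sums of up to 177 RPKM in the same libraries, and its source was not tested.

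The share of Fgfr2 held by the transcript with the IIIb exon overlapped between epithelial and lung stromal cells. NM_201601 read 7.09, 19.0 and 19.3 RPKM in the epithelial libraries, and 1.58, 3.41 and 3.28 in lung Il33+ MSC. It was the larger of the 2 listed transcripts in 14 of the 15 libraries, the exception being replicate 1 of the Il33- WAT-MSC, where it was listed at 0 and the other at 0.22 RPKM. The transcript with the IIIc exon, NM_010207, read 6.31, 3.82 and 5.86 RPKM in epithelial cells and between 0.05 and 1.58 in the other 12 libraries, so it too was highest in epithelial cells.

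NM_010207 held 29.1% ± 15.95 (SD, n = 3) of Fgfr2 in epithelial cells, 16.1% ± 6.72 in lung Il33+ MSC, 10.8% ± 9.67 in Il33+ WAT-MSC, 40.4% ± 52.1 in Il33- WAT-MSC and 9.74% ± 5.95 in endothelial cells. The 40.4% rests on Il33- WAT-MSC replicate 1, where the 0.22 RPKM listed for Fgfr2 gives a share of 100%, and the other 2 libraries had 3.09% and 18.2% (mean 10.6%). The epithelial range, 16.8% to 47.1%, overlapped that of lung Il33+ MSC, 8.67% to 21.8%. A 2-sided exact permutation test of the 3 epithelial libraries against the other 12 gave p = 0.532. That value depends on the same library: without it, an alternative chosen after seeing the data, the other 11 averaged 11.9%, with a highest share of 21.8%, and the exact permutation p was 0.0165 (6 of 364 splits, not adjusted). In the limma fit of log2((transcript + 0.5)/(rest of its gene + 0.5)) the difference from lung Il33+ MSC was 0.26 (SE 0.55, adjusted p = 0.881). The 2 transcripts differ in the exons of the first immunoglobulin loop too, so the share does not isolate the IIIb and IIIc choice.

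Fgfr1 was carried in epithelial cells mainly by NM_001079909, which lacks the 267-base exon of the first immunoglobulin loop. The transcripts with that exon, NM_001079908 and NM_010206, together held 11.1%, 14.5% and 25.9% of Fgfr1 in the epithelial libraries. In lung Il33+ MSC they held 27.9%, 51.6% and 42.03%, and in the 9 WAT libraries between 31.7% and 80.1%. The epithelial libraries were thus the 3 lowest (exact permutation p = 0.0044, 2-sided, against the other 12). How many other genes separate in this way was not counted. The 11.1% rests on epithelial replicate 1, where Fgfr1 read 0.54 RPKM in all, and the other 2 epithelial libraries averaged 20.2%. With a library left out, an alternative added after seeing the data, the exact permutation p lay between 0.00275 and 0.033. The limma fit called none of the 3 Fgfr1 transcripts, with adjusted p between 0.633 and 0.798 against lung Il33+ MSC. NM_001079908 and NM_010206 read at most 0.30 RPKM in an epithelial library, which is below the added 0.5, and their differences of 0.35 and 0.37 became -0.61 and -0.59 with 0.1 in its place.

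Tpm1 (chromosome 9) had the largest differences in share among the 8 genes. The transcripts with the upstream 76-base exon together held 65.7%, 92.9% and 51.5% of Tpm1 in the epithelial libraries. They held 4.07%, 9.95% and 14.4% in lung Il33+ MSC, between 1.46% and 22.8% in Il33+ WAT-MSC, between 0.298% and 13.9% in Il33- WAT-MSC and between 20.7% and 25.9% in endothelial cells. The epithelial libraries did not overlap the other 12 (exact permutation p = 0.0022, 2-sided, the smallest that 455 splits allow). The test takes those 12 as alike, though they are 3 libraries from each of 4 populations. It was not counted how many other genes separate so. The endothelial libraries lay between the epithelial cells and the lung stromal cells, overlapping neither, but their range overlapped that of Il33+ WAT-MSC. In the same endothelial libraries the pericyte and smooth muscle markers summed to between 193 and 271 RPKM, and their part in this was not tested.

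The level of Tpm1 as a whole differed less. It was 51.6 ± 17.6 RPKM in epithelial cells, 35.9 ± 8.04 in lung Il33+ MSC, 31.5 ± 5.31 in Il33+ WAT-MSC, 31.7 ± 1.42 in Il33- WAT-MSC and 56.8 ± 14.98 in endothelial cells (SD, n = 3 each). The gene was not called between epithelial cells and lung Il33+ MSC (limma, difference 0.48, SE 0.29, adjusted p = 0.227), although it was with median-ratio scaling (0.83, adjusted p = 0.0124) and without epithelial replicate 1 (0.76, adjusted p = 0.0342).

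Among single transcripts, NM_024427, with the long first exon and the downstream 76-base exon, fell furthest in relation to its spread. It read 0.25, 1.19 and 0.72 RPKM in epithelial cells, 5.06, 12.7 and 10.0 in lung Il33+ MSC, and between 6.09 and 13.8 in the WAT libraries. Its log2 ratio to the rest of Tpm1 was lower in epithelial cells than in lung Il33+ MSC by 3.88 (value -3.88, SE 0.41, limma adjusted p = 0.0327). NM_001164252, the short form with the internal first exon of 132 coding bases and the downstream exon, read 0.02, 1.56 and 0.35 RPKM in epithelial cells against 13.6, 9.38 and 13 in lung Il33+ MSC. Its difference was -4.76 (SE 0.605, adjusted p = 0.0499).

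Of the forms with the upstream exon, NM_001164250 was the steadiest, at 18.1, 20.2 and 21.7 RPKM in epithelial cells. It read 0.30, 2.04 and 2.76 RPKM in lung Il33+ MSC and between 0.02 and 10.7 in the WAT libraries, with the highest value in an endothelial library. The short form NM_001164253 varied widely between the epithelial libraries, at 1.51, 27.2 and 11.6 RPKM, and so did NM_001164249, which pairs the downstream exon with another second exon, at 11.2, 1.01 and 32.1 RPKM. NM_001164249 was also the main form in endothelial replicates 2 and 3, at 34.5 and 33.6 RPKM. NM_001164251, with a last exon of its own, read 2.33, 1.94 and 1.95 RPKM in epithelial cells and at most 1.16 elsewhere.

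Against the 4 other populations together, 4 of the 6 Tpm1 transcripts were called: NM_001164250 was higher by 3.53 (SE 0.56, limma adjusted p = 0.00331) and NM_001164251 by 1.81 (SE 0.29, adjusted p = 0.00359). The difference was -4.66 for NM_001164252 (SE 0.61, adjusted p = 0.00086) and -3.70 for NM_024427 (SE 0.27, adjusted p = 1.32e-05). The choice between the first exon of 114 coding bases and the internal first exon of the short forms did not pass the test, with the former in 74.6% ± 25.7 of Tpm1 in epithelial cells and 60.1% ± 10.9 in lung Il33+ MSC (exact permutation p = 0.167 against all 12 other libraries). Without epithelial replicate 2, also tried after seeing the data, it did (88.95% against 57.8%, exact permutation p = 0.022).

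**Figure D3:**
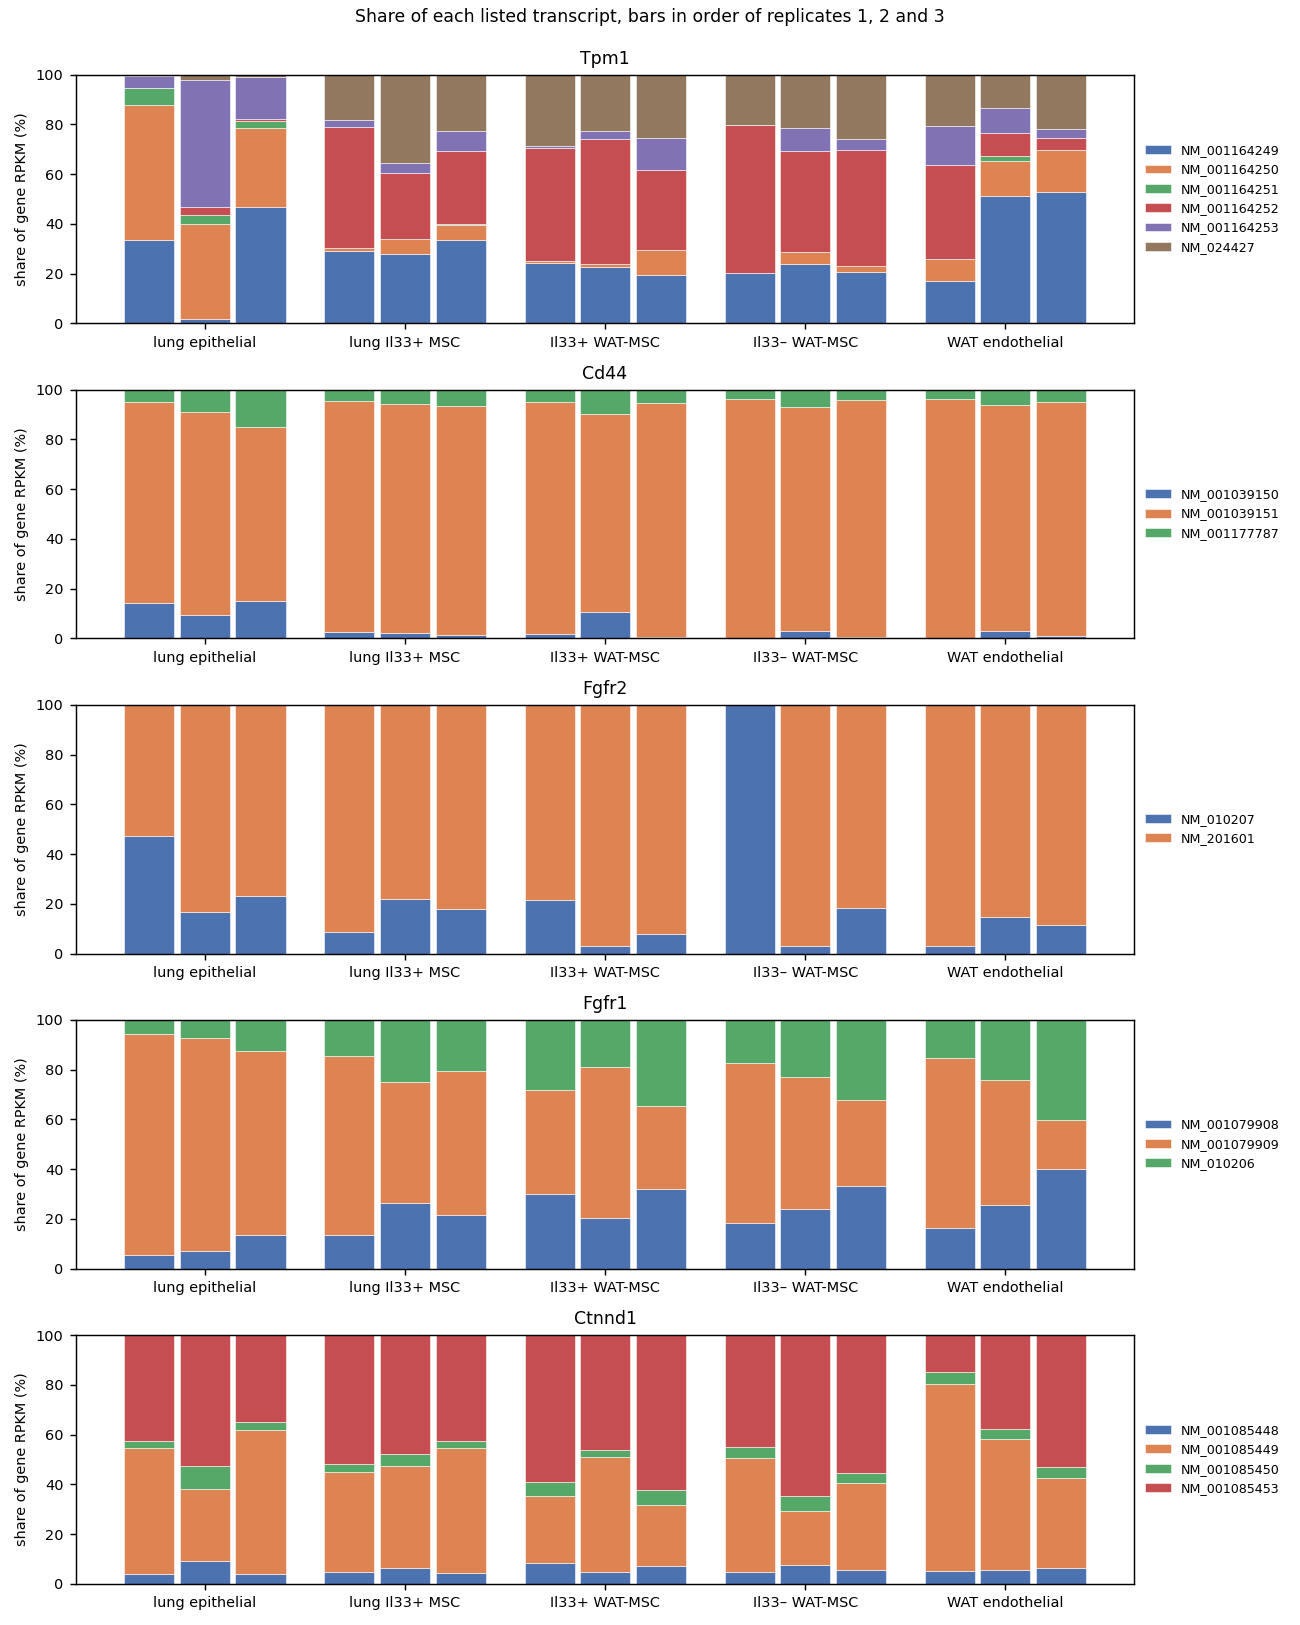
Share of each listed transcript in its gene's summed RPKM, in percent, for Tpm1, Cd44, Fgfr2, Fgfr1 and Ctnnd1, with 1 stacked bar per library and the 3 replicates of each population side by side. The Tpm1 forms NM_024427 and NM_001164252 make up at most 2.94% in the epithelial libraries, where Cd44 NM_001039150 reaches between 9.59% and 15.2%.

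Cd44 (chromosome 2) was made mostly as the standard form in every library, with a larger part of variable exons in epithelial cells. NM_001039151, without variable exons, held between 69.9% and 81.5% of Cd44 in the epithelial libraries, between 92.2% and 93.2% in lung Il33+ MSC and between 79.6% and 96.2% in the WAT libraries. NM_001039150, with all 5 variable exons, read 2.25, 2.25 and 3.16 RPKM in the epithelial libraries and 0.62, 0.61 and 0.45 in lung Il33+ MSC. It held 14.2%, 9.59% and 15.2% of Cd44 in the former and 2.42%, 2.07% and 1.35% in the latter. These ranges did not overlap, but the number of other genes without overlap was not counted. The WAT libraries had between 0.126% and 2.95%, except for replicate 2 of the Il33+ WAT-MSC, which had 10.5%, above the lowest epithelial library.

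The log2 ratio of NM_001039150 to the rest of Cd44 was 2.24 higher in epithelial cells than in lung Il33+ MSC (SE 0.26, limma adjusted p = 0.0381) and 1.87 higher than in the 4 other populations (SE 0.35, adjusted p = 0.00975). The standard form was lower by 1.67 in the former comparison (value -1.67, SE 0.26, adjusted p = 0.0703) and by 1.53 in the latter (value -1.53, SE 0.31, adjusted p = 0.0154). The form with the last 2 variable exons, NM_001177787, held 5.11%, 8.87% and 14.9% in epithelial cells and between 4.41% and 6.44% in lung Il33+ MSC, and was not called. The level of the gene was 20.04 ± 3.86 RPKM in epithelial cells and 29.5 ± 3.87 in lung Il33+ MSC, a log2 difference of -0.54 (SE 0.22, limma adjusted p = 0.0802), which was called with the lane as a covariate (adjusted p = 0.0385) and on the most abundant transcript alone (-0.79, adjusted p = 0.0212). Leukocytes also express Cd44, and their listed markers summed to between 688 and 1318 RPKM in the epithelial libraries, chiefly as Lyz2. In lung Il33+ MSC the same markers summed to between 123 and 153 RPKM.

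In the comparison of epithelial cells with lung Il33+ MSC, Cd44 and Tpm1 were the 2 genes with a called transcript, where 1.77% of 1526 fitted genes had 1 or more. By transcript, 3 of the 17 fitted here were called and 1.51% of 2585 in all. Against the 4 other populations the same 2 genes were called, beside 5.61% of 1498 genes, with 6 of 17 transcripts called beside 4.9% of 2529. Shares within a gene depend on each other, and all the called transcripts came from these 2 genes, so they are not independent. Genes with more listed transcripts also had more chances of a call, so the percentages over all genes are not a like background.

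These calls are close to the threshold with 3 libraries a population. Leaving out any 1 of the 6 lung libraries ended the Tpm1 calls, with adjusted p between 0.0657 and 0.117 for NM_024427 and between 0.0762 and 0.158 for NM_001164252. It ended the call of Cd44 NM_001039150 too, with adjusted p between 0.0734 and 0.158, although the standard form NM_001039151 was called without epithelial replicate 3 (adjusted p = 0.0409). The size of the differences stayed between -3.52 and -4.15 for NM_024427, between -4.34 and -5.27 for NM_001164252 and between 2.07 and 2.46 for NM_001039150. A pseudocount of 0.1, plain shares, a minimum gene level of 5 RPKM and the sequencing lane as a covariate each left none of the 8 genes called as well. Against the 4 other populations, Tpm1 was called whichever library was left out, whereas the Cd44 calls were lost without epithelial replicate 1 (NM_001039150, 1.78, limma adjusted p = 0.0583) or replicate 3 (1.75, adjusted p = 0.0535) and with a pseudocount of 0.1 (2.80, adjusted p = 0.0565).

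**Figure D4:**
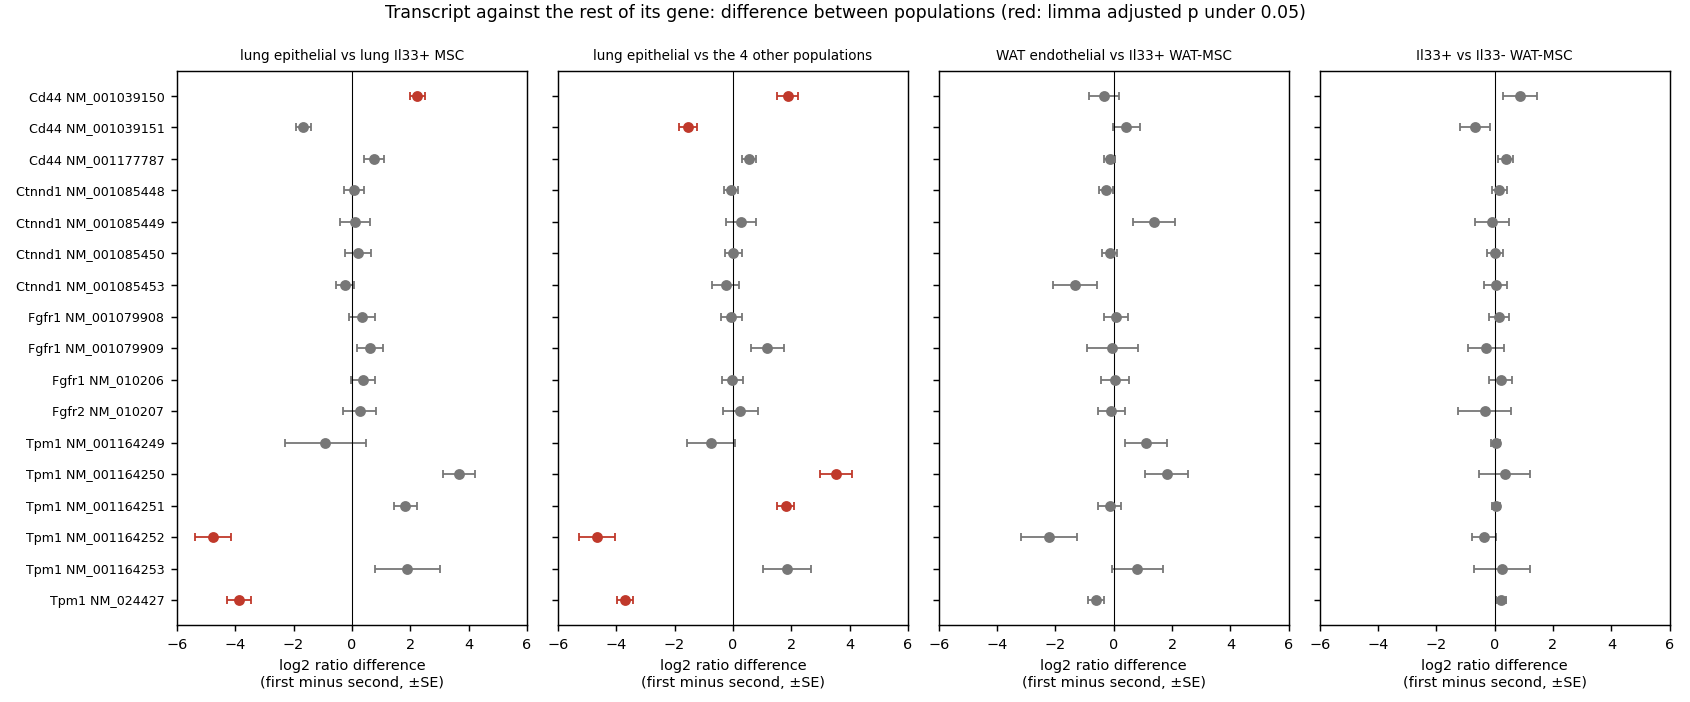
Difference between populations in the log2 ratio of each fitted transcript to the rest of its gene (points, with SE), first population minus second, in 4 comparisons, with red points for a limma adjusted p under 0.05. Red points are found for Tpm1 and Cd44 in the 2 epithelial comparisons, and in neither of the other 2.

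Ctnnd1 (chromosome 2), which encodes p120 catenin, a partner of cadherins at cell junctions, had no called transcript. Long forms with the full N-terminus are held to be mesenchymal and forms that start further downstream epithelial. The 3 long-start transcripts together held 49.2%, 71.2% and 42.0% of Ctnnd1 in the epithelial libraries and 60.1%, 58.8% and 50.0% in lung Il33+ MSC. Means were 67.6% ± 11.98 in Il33+ WAT-MSC, 65.9% ± 12.2 in Il33- WAT-MSC and 45.3% ± 19.4 in endothelial cells, and the ranges of all populations overlapped that of the epithelial cells (exact permutation p = 0.629).

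The short-start transcript NM_001085449 was highest in an endothelial library, replicate 1, at 47.6 RPKM, against 25.6 and 17.6 in the other two. Transcripts with the 18-base exon held 10.7% ± 6.74 of Ctnnd1 in epithelial cells and 8.97% ± 1.75 in lung Il33+ MSC. All 12 other libraries averaged 10.4% (exact permutation p = 0.877). Without epithelial replicate 2, an alternative added after seeing the data, the epithelial mean was 6.85%. The direction was then reversed, below those 12 (exact permutation p = 0.044). Transcripts with the 63-base exon held 50.9% ± 11.7 in epithelial cells and 47.5% ± 5.04 in lung Il33+ MSC (exact permutation p = 0.576). The level of the gene was also close, at 42.2 ± 8.58 and 41.5 ± 1.52 RPKM, a log2 difference of 0.00 (SE 0.22, limma adjusted p = 0.999).

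Enah (chromosome 1) encodes Mena, an actin regulator whose small exon 11a is a target of ESRP proteins, but its single listed transcript, NM_001083121, allows no share. It read 1.27, 9.15 and 9.75 RPKM in epithelial cells and between 0.38 and 2.38 in the other 12 libraries. Epithelial replicates 2 and 3 were the highest of all, while replicate 1 lay within the range of the other populations. Enah was 1.39 higher than in the 4 other populations (SE 0.44, limma adjusted p = 0.0167), a call lost without epithelial replicate 2 (1.05, adjusted p = 0.122) or replicate 3 (1.01, adjusted p = 0.133). Against lung Il33+ MSC the difference was 1.32 (SE 0.61, adjusted p = 0.115), which was called with median-ratio scaling (1.54, adjusted p = 0.0491) and without epithelial replicate 1 (2.05, adjusted p = 0.00411).

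None of the remaining comparisons had a call among the 8 genes, by level or by share. Between endothelial cells and Il33+ WAT-MSC, 3.9% of 8665 genes were called by level, but 0 of the 6 genes of interest that passed the filter, and 1 of them, Tpm1, had an unadjusted p under 0.05 in the limma fit (difference 0.81, SE 0.30, adjusted p = 0.228). Between Il33+ and Il33- WAT-MSC, 1.57% of 8448 genes were called, with 0 of 6 here, adjusted or not. Between the Il33+ stromal cells of WAT and lung, 6% of 8554 genes were called and again 0 of 6. Cd44 came nearest there, with a difference of -0.80 (SE 0.23, limma adjusted p = 0.0782), which was called without replicate 2 of the Il33+ WAT-MSC (-1.01, adjusted p = 0.0171).

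By share, limma called 0% of the 2672, 2636 and 2665 transcripts fitted in these 3 comparisons, with 183, 155 and 206 at an unadjusted p under 0.05. Among the 17 transcripts of the genes followed here, the counts at an unadjusted p under 0.05 were 0, 0 and 1, the last being Tpm1 NM_001164249 (-0.58, SE 0.15, adjusted p = 0.481). The endothelial Tpm1 share with the upstream exon, 23.7% ± 2.71 against 9.67% ± 11.5 in Il33+ WAT-MSC, was therefore not a called difference, with NM_001164250 at 1.81 (SE 0.74, limma adjusted p = 0.707).

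**Figure D5:**
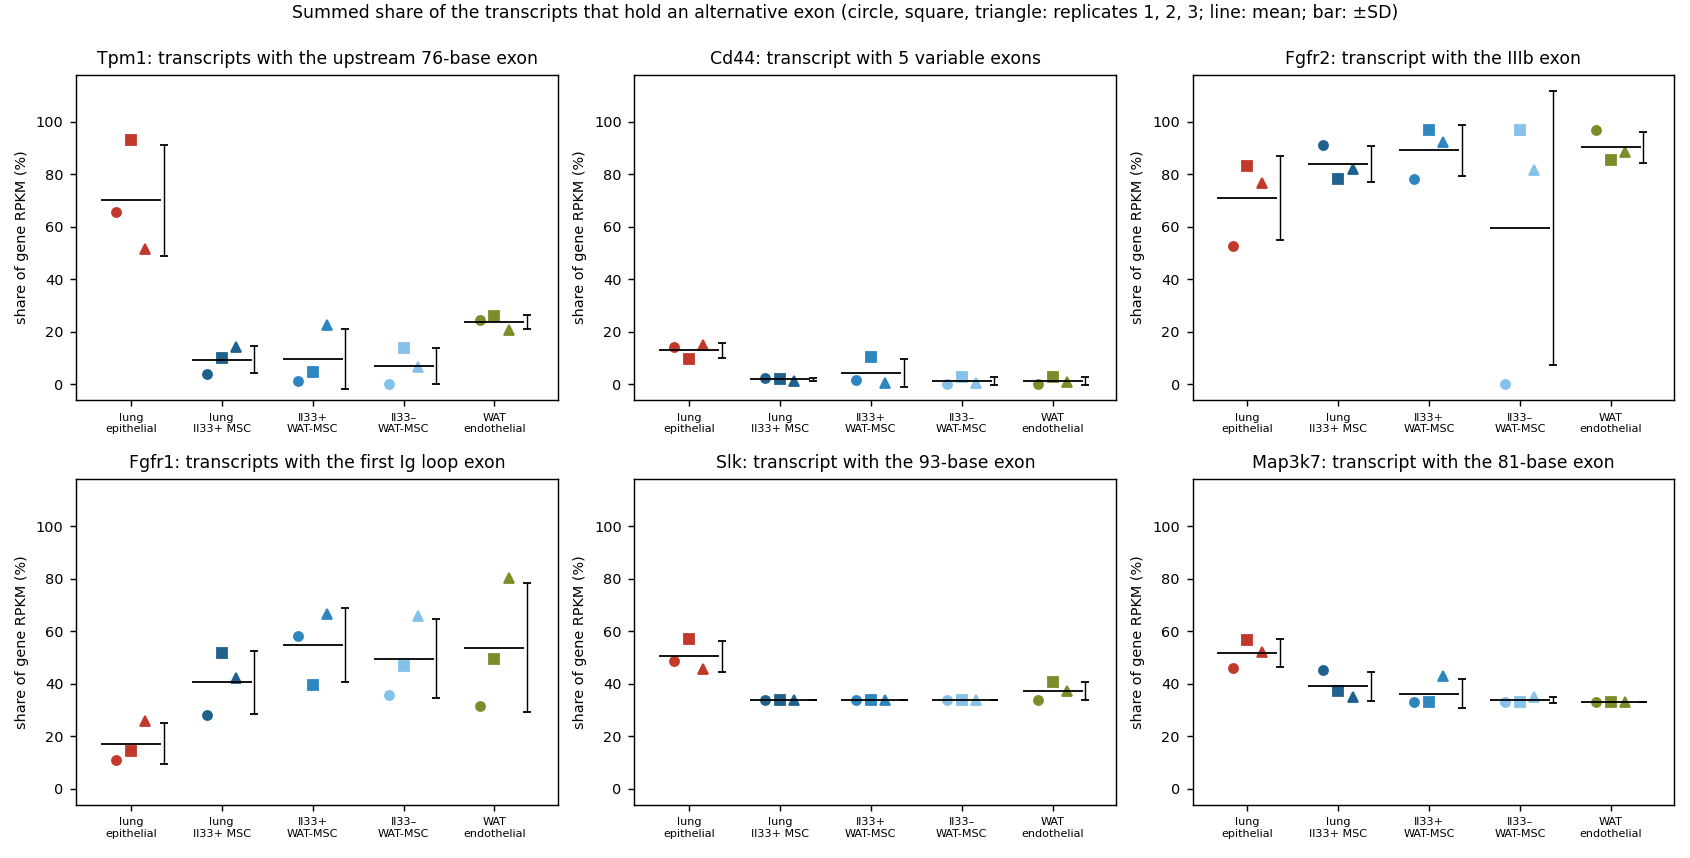
Summed share, in percent of the gene's RPKM, of the transcripts that hold an alternative exon in Tpm1, Cd44, Fgfr2, Fgfr1, Slk and Map3k7, per library (points; circle, square and triangle are replicates 1, 2 and 3) with the mean (line) and SD (bar) of each population. The epithelial libraries lie apart from all others for Tpm1, Fgfr1, Slk and Map3k7, lie apart from all but 1 library for Cd44, and overlap them for Fgfr2. Slk and Map3k7 were drawn because a share of theirs was called, so their separation is no further result. How often other genes separate in this way was not counted.

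Of 25 other genes with exons reported to respond to ESRP proteins or to epithelial to mesenchymal transition, 23 were listed and 15 had 2 or more transcripts. None of the 13 that could be fitted had a called transcript between epithelial cells and lung Il33+ MSC, and 2 of 11 had one against the 4 other populations, beside 5.61% of all fitted genes. These were Slk and Map3k7, both kinases. The Slk transcript with a 93-base coding exon, NM_009289, held 48.7%, 57.0% and 45.7% of the gene in the epithelial libraries and between 33.9% and 40.6% in the other 12. The transcript without it differed by -0.88 (SE 0.11, limma adjusted p = 0.000607). The Map3k7 transcript with an 81-base exon, NM_009316, held between 46.0% and 56.6% in epithelial cells and between 33.0% and 45.1% elsewhere, a difference of 0.82 (SE 0.14, adjusted p = 0.00655).

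The deposited shares do not all vary freely, which bears on such spreads. The ratio of the 2 Slk transcripts lay between 1.943 and 1.948 in 10 of the 12 non-epithelial libraries, and that of Map3k7 between 2.027 and 2.033 in 7 of them. Of 530 genes with 2 transcripts of at least 2 RPKM each in 8 or more libraries, 35.7% had ratios within 2% of each other in at least 50% of those libraries. Ctnnd1 NM_001085453 and NM_001085449 were listed at the same 19.5 RPKM in replicate 2 of the Il33+ WAT-MSC. Tpm1 NM_024427 and NM_001164249 were equal there at 8.25 RPKM, and at 6.09 RPKM in Il33- WAT-MSC replicate 1. How the reads of a gene were divided among its transcripts is not given in the sources used here.

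Other RNA-binding splicing regulators were called about as often as genes in general. Of 21 in the list, 19 were listed and 18 passed the filter between epithelial cells and lung Il33+ MSC, where 2 were higher, 7 lower and 9 not called (of all genes 43% were called, 18.5% higher and 24.4% lower), with a median log2 difference of -0.33 beside -0.13 for all genes. With median-ratio scaling no called regulator changed direction, 1 call was lost and Hnrnpf was gained (0.84, adjusted p = 0.00459). Rbm47, which also promotes epithelial splice forms, was 2.96 higher (SE 0.28, limma adjusted p = 2.66e-05), at 6.69, 8.89 and 11.02 RPKM against at most 0.97 in every other library. Mbnl3, of the muscleblind family, was 2.56 higher (SE 0.25, adjusted p = 3.04e-05). Rbm47 and Mbnl3 passed the filter on low values only through the epithelial libraries, and Nova1 only through the stromal ones, so their differences are a description.

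The 7 lower ones were Celf2, Nova1, Rbfox2, Khdrbs3, Mbnl1, Hnrnph1 and Qk, of which Qk and Rbfox2 are known to promote mesenchymal forms. Celf2 read 2.68, 3.45 and 3.25 RPKM in epithelial cells and between 15.1 and 43.95 in the other populations (-2.66, SE 0.22, limma adjusted p = 1.13e-05). Rbfox2 differed by -1.72 (SE 0.45, adjusted p = 0.0117) and Qk by -0.93 (SE 0.21, adjusted p = 0.00538), a call that median-ratio scaling ended (-0.59, adjusted p = 0.0533). Ptbp1, which represses exons of Tpm1 and Fgfr2, was not called against lung Il33+ MSC (-0.57, SE 0.22, adjusted p = 0.0654) but was against the 4 other populations (-0.81, SE 0.19, adjusted p = 0.0021). Nova1 was the 1 regulator called among stromal cells, higher in Il33+ WAT-MSC than in lung Il33+ MSC by 1.78 (SE 0.27, limma adjusted p = 0.00293).

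Transcription factors known for the epithelial and the mesenchymal state were read from a list of 11. Of these, 8 were listed. All 8 were called between epithelial cells and lung Il33+ MSC, 2 higher and 6 lower, beside 18.5% and 24.4% of all genes. Their median log2 difference was -2.08 beside -0.13 for all genes. Grhl1, Ovol1 and Ovol2 were the unlisted ones, so this median depends on which factors were listed, mostly those of the mesenchymal state. Grhl2 passed the filter on low values only through the epithelial libraries and Snai1, Twist1 and Twist2 only through the stromal ones, so those 4 had to differ, and the calls that do not rest on the filter are those of Klf5, Zeb1, Zeb2 and Snai2. Grhl2, which maintains epithelial genes, was 2.75 higher (SE 0.26, limma adjusted p = 2.99e-05), and Klf5 was 2.78 higher (SE 0.36, adjusted p = 0.00019). Zeb1 and Zeb2, repressors of Esrp1 and other epithelial genes, differed by -2.72 (SE 0.22, adjusted p = 1.02e-05) and -3.36 (SE 0.22, adjusted p = 3e-06). Zeb2 read 7.32, 5.09 and 5.26 RPKM in epithelial cells and between 33.35 and 108 in the other 12 libraries.

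Snai1, Snai2, Twist1 and Twist2 were the other lower factors. Snai2 was the weakest of them (-1.08, SE 0.38, limma adjusted p = 0.0432), and its call was lost with median-ratio scaling (-0.85, adjusted p = 0.113). Twist2 was listed at 0, 0 and 0.02 RPKM in epithelial cells and read between 5.41 and 12.01 in the stromal libraries. Endothelial cells had Zeb1 at 25.3, 27.2 and 23.8 RPKM and Esrp1 listed at 0. Zeb1 was high and Esrp1 low in stromal and endothelial cells alike, and a link between these genes was not tested. The same endothelial libraries had stromal marker sums between 1767 and 3659 RPKM, and the part of stromal cells in their Zeb1 was not tested.

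Relatives of the receptors and tropomyosins were read from a list of 7, of which 6 were listed. Fgfr3 was higher in epithelial cells than in lung Il33+ MSC by 0.87 (SE 0.29, limma adjusted p = 0.0374), at 5.69, 9.01 and 7.31 against 2.75, 3.02 and 5.07 RPKM. It was lower in Il33+ WAT-MSC than in lung Il33+ MSC (-1.92, SE 0.31, adjusted p = 0.00429). Tpm2, another tropomyosin that passed the filter only through the stromal libraries, read 0.02, 0.24 and 0.67 RPKM in epithelial cells and 3.02, 5.16 and 8.19 in lung Il33+ MSC (-2.25, SE 0.36, adjusted p = 0.000779). Tpm3 differed by -0.68 (SE 0.22, adjusted p = 0.0324), or by -0.32 with median-ratio scaling (adjusted p = 0.369), and Tpm4, Evl and Vasp were not called, although Vasp was with median-ratio scaling (0.70, adjusted p = 0.0341).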

How the data were processed

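The members and the lists of other genes were chosen with earlier results of these data known. Sorted cells were lysed, and their RNA was amplified with the Ovation RNA-seq System V2. The authors deposited RPKM values with 2 decimals for 12698 RefSeq transcripts, after TopHat2 and Partek, on mm10 per the submitters' processing notes. The counting method, its use of strand and the filter behind the list are not given in the sources used here, so the reads behind a value are unknown and no counting interval is given. The submitters state that replicates come from independent experiments.

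RPKM was summed by symbol. Genes with at least 1 RPKM in at least 3 of the libraries fitted were tested on log2(RPKM + 1) with limma 3.58.1 in R 4.3.3 (eBayes with trend), with Benjamini-Hochberg adjustment over all genes and a threshold of 0.05. Shares were tested as log2((transcript + 0.5)/(rest of its gene + 0.5)), with the mean gene level as trend, for genes of at least 1 RPKM in at least 2 of 3 libraries per population, or 8 of the 12 others, adjusted over all transcripts fitted. Of genes with 2 transcripts 1 was fitted. Summed exon shares were compared by 2-sided exact permutation tests over 13 exon groups of the members, without adjustment. The p-value was the proportion of all splits with an absolute difference in means at least as large as that observed. The scripts were tested on simulated data.

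All 22 transcripts were matched to the GENCODE annotation of GRCm38, from which exons were read. The exon sequences of Fgfr2 are not reported here. Named genes are all members, the lists of splicing regulators, transcription factors, other spliced genes and relatives, and the 5 genes with the highest r to each Esrp gene. Alternatives were other pseudocounts, filters and scalings, the most abundant transcript, a replicate block, the sequencing lane (8 and 7 libraries), all libraries in 1 fit, and each library left out.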

Additional observations from a re-analysis of the deposited data

How the results depend on the processing

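Of the 8 genes, 4 were called by level between epithelial cells and lung Il33+ MSC. Esrp1, Esrp2, Fgfr1 and Fgfr2 were called under every alternative that kept them in the fit. Esrp1 and Esrp2 passed the main filter only through the epithelial libraries, so for them the alternatives are no independent check. With 1 RPKM required in every library, which removes Esrp1, Esrp2, Fgfr1 and Enah, the count was 1. Against the 4 other populations the same filter also removes Fgfr2, and the count fell from 5 to 0. Against lung Il33+ MSC the count also rose to 6 with median-ratio scaling or without epithelial replicate 1, which both add Tpm1 and Enah. It rose to 5 with the replicate block, the lane as a covariate or the most abundant transcript, which each add Cd44. Against the 4 other populations it rose to 6 with median-ratio scaling or without epithelial replicate 1, which add Tpm1. The count of genes with a called share, 2, fell to 0 against lung Il33+ MSC with a pseudocount of 0.1, plain shares, a minimum of 5 RPKM, the lane as a covariate or a replicate block, and lay between 0 and 1 with a library left out. Against the 4 other populations it was 1 with a pseudocount of 0.1 and between 1 and 2 with a library left out. Between the Il33+ stromal cells of WAT and lung the count by level was 1, Cd44, with the most abundant transcript of each gene and between 0 and 1 with a library left out.

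Median-ratio scaling moved the median log2 difference of all genes from -0.13 to 0.15 against lung Il33+ MSC and from -0.17 to 0.09 against the 4 other populations, and the higher genes from 42% to 55.4% of the calls in the latter. Over all transcripts, the 39 called shares against lung Il33+ MSC became 4 with a minimum of 5 RPKM and 108 with no filter, and lay between 4 and 22 with a library left out. The 124 against the 4 other populations became 34 with a pseudocount of 0.1 and 249 with no filter, and lay between 69 and 150 with a library left out. Requiring 1 RPKM in every library took the 4019 and 4408 genes called by level in these comparisons to 1941 and 1795, where fewer genes were tested. By level, the 338 genes called between endothelial cells and Il33+ WAT-MSC lay between 123 and 805 over the alternatives, the 133 between Il33+ and Il33- WAT-MSC between 45 and 232, and the 513 between the Il33+ stromal cells of WAT and lung between 261 and 527.

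The labels do not say that same-numbered libraries come from 1 experiment, but the numbers go with the lane: all replicates 1 were on lane 1 and all replicates 3 on lane 2, with replicates 2 on lane 2 for lung and lane 1 for WAT, so number and lane cannot be fully told apart. The correlations of their deviations from the population means lay between -0.067 and 0.155. In 2 of the 4 pairs of populations all 6 libraries correlated best with their own number, a hint from the data and not from the design, and in the other 2 pairs 2 of 6 did. The replicate block left 0 of 2585 shares called against lung Il33+ MSC, 114 of 2529 against the 4 other populations, and 232 genes by level between Il33+ and Il33- WAT-MSC. By level it added Cd44 against lung Il33+ MSC (-0.54, adjusted p = 0.0475).

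The sign turned in differences that were not called. With the most abundant transcript, Ctnnd1 was at -0.13 and Tpm1 at -0.32. With a pseudocount of 0.1, Fgfr1 NM_001079908 was at -0.61 and NM_010206 at -0.59, and with a pseudocount of 1, Fgfr2 NM_010207 was at -0.031. With a library left out, Ctnnd1 lay between -0.11 and 0.18 by level, and its transcripts between -0.29 and 0.26 (NM_001085448), -0.25 and 0.61 (NM_001085449), -0.27 and 0.45 (NM_001085450) and -0.50 and 0.018 (NM_001085453). Fgfr2 NM_010207 lay between -0.32 and 0.69 and Tpm1 NM_001164249 between -1.87 and 0.61. With a library left out of the exact tests, an alternative added after seeing the data, the summed shares in epithelial cells minus the other 12 libraries lay between -13.1 and 1.43 percentage points for the long starts of Ctnnd1 and between -3.57 and 2.39 for its 18-base exon. The cause of these shifts was not tested. The files used hold no read counts, so no limit of detection is given.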
